A study of Mus musculus with 9 samples.

Results

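The nuclear genes for the subunits of the mitochondrial respiratory chain (complexes I to IV) and of the ATP synthase (complex V) were followed across 9 mouse libraries. The genes were chosen by symbol: those beginning with Nduf, Uqcr, Cox4 to Cox8 or Atp5, together with Sdha, Sdhb, Sdhc and Sdhd, without pseudogenes. The rule gave 90 of the 19435 genes in the table: 43 assigned to complex I (29 accessory subunits, 7 core subunits and 7 assembly factors), 4 to complex II, 8 to complex III, 18 to complex IV and 17 to complex V. By what the encoded proteins do, Ndufa4 and Ndufa4l2 were placed with complex IV, and Atp5s and Atp5sl, which carry an ATP synthase name but encode proteins not counted among its subunits, were described apart. Poly-A RNA had been sequenced from 5 normal oviducts and 4 primary tumors of the oviduct. The genotype was Dicer1+/D1693N in oviducts 1 to 3, Dicer1+/+ in oviducts 4 and 5 and Dicer1ko/D1693N in all 4 tumors. Dicer1 encodes the enzyme that cuts microRNA precursors. The mice were untreated, the labels give no age or strain, and the means by which the ko allele arose is not given in the sources used here.

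Complex I takes electrons from NADH, complex II from succinate, and both pass them through ubiquinone to complex III, cytochrome c and complex IV, which reduces oxygen. Complexes I, III and IV pump protons, and the ATP synthase makes ATP from their return. Most subunits are encoded in the nucleus and a few core subunits in mitochondrial DNA, and several nuclear subunits of complex IV and of the ATP synthase exist as paralogs whose use differs between tissues or with oxygen supply.

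The libraries held 8504993 to 12526078 counted reads. Values per library are counts normalized with the size factors recovered from the deposited log2 values, and a change is given on the deposited log2 scale ± SE. A gene was called at a Benjamini-Hochberg adjusted p under 0.05 by limma over all 19435 genes. Dicer1 itself had 1086 ± 131 normalized counts in oviducts (SD, n = 5) and 995 ± 396 in tumors (SD, n = 4), with a change of -0.21 ± 0.25 (adjusted p = 0.568), and gene counts do not tell its alleles apart. The tissues differed in cell type markers. All 7 measured ciliated cell markers were called lower in the tumors. Their summed level was 19061 to 30047 in the oviducts and 160 to 720 in the tumors. Of 5 secretory epithelium markers 2 were called lower and 0 higher, and all 3 dividing cell markers were called higher. In whole tissue, fewer cells of a type and less RNA per cell cannot be told apart. The labels do not say whether each library came from a separate animal, so p-values measure the spread between these libraries.

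As a group, the 90 genes differed little between tumors and oviducts. Only Cox4i2, Ndufa4l2 and Ndufa10 were called higher, where 12.6% of all genes were, and Atp5s, Atp5sl and Ndufaf7 were called lower, where 18.5% of all genes were. With an added minimum change of 1 on the log2 scale, 2 members passed as higher (Cox4i2 and Ndufa4l2; 6.53% of all genes) and 0 as lower (12.1% of all genes). At an unadjusted p under 0.05 there were 6 members higher and 4 lower, against 3510 higher and 4665 lower of all 19435 genes. The median change over the members was 0.03 and that over all genes -0.05, and 82 of the 90 changes were smaller than 0.5 in size. The tumors lay above every oviduct in 2 members (10.8% of all genes) and below every oviduct in 3 (16.8% of all genes). The shares of members called or separated were below those of the table in both directions. The members also varied more among the pooled oviducts. Among genes above the median level, the median SD of the log2 values in the oviducts was 0.29 for members and 0.17 for all genes. In the tumors it was 0.37 and 0.39. The part of the wider oviduct spread in the low shares was not tested. Leaving out any 1 of oviducts 1, 2 and 3, or tumor 2, reduced the members called higher to 1, and leaving out tumor 3 raised them to 6. Using only the Dicer1+/+ oviducts as controls left 0 higher and 1 lower.

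**Figure D1:**
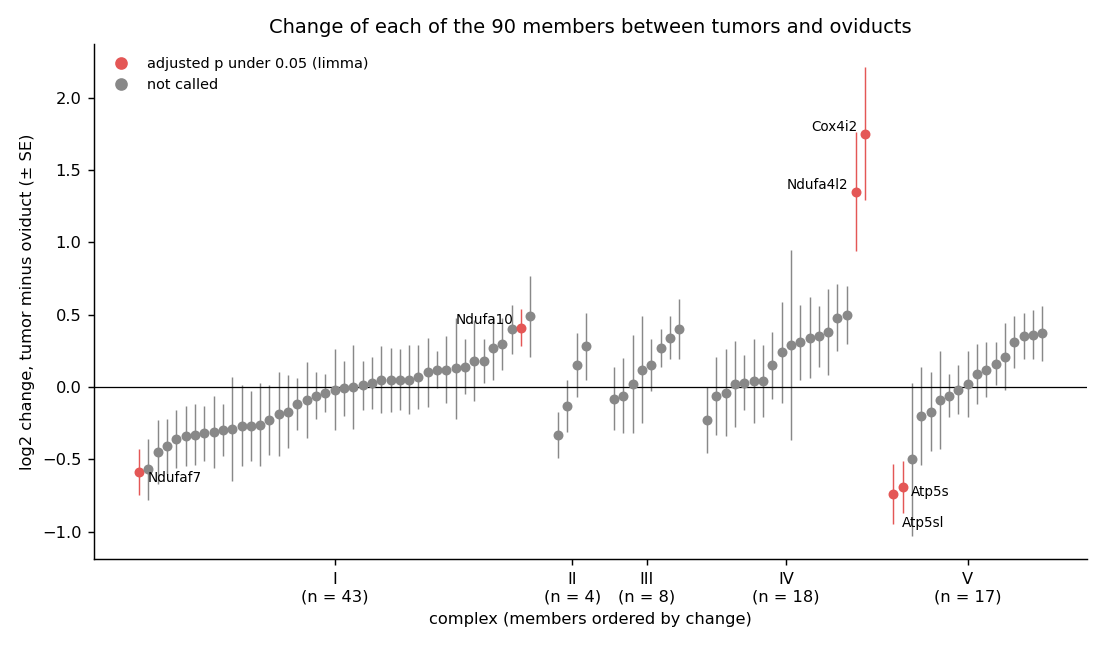
Log2 change between tumors and oviducts (vertical axis, tumor minus oviduct, bars are the SE of the fit) for each of the 90 members, grouped by complex and ordered by change. Red marks the members called by limma, 3 higher and 3 lower, and 82 of the 90 points lie within 0.5 of 0.

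The 5 complexes differed in level, and within each complex the level varied between libraries of the same tissue. Per 1000 bases of transcript, the median common subunit of complex IV had 2140 normalized counts in oviducts and 2320 in tumors, the median ATP synthase subunit at 1470 and 1590, the median complex III subunit at 1230 and 1240, the median complex II subunit at 620 and 728 and the median core subunit of complex I at 541 and 569. The assembly factors of complex I were the least abundant class of common function, at 80.3 and 76.1. The order of these medians was the same in both tissues. The mean log2 value over all members was 8.75, 8.85 and 8.87 in oviducts 1, 2 and 3, 9.24 and 9.34 in oviducts 4 and 5, and 9.08, 9.24, 8.62 and 9.26 in tumors 1 to 4. Tumor 3 was below every oviduct, tumor 1 lay between the oviduct genotypes, and tumors 2 and 4 were at the level of the Dicer1+/+ oviducts. Tumor 3 was the lowest of the 9 libraries in 51.1% of the members and in 19.2% of all genes. Its median difference from the mean of the oviducts was -0.39 over the members, and that of tumors 1, 2 and 4 was 0.06, 0.20 and 0.22. Tumor 3 also had the most genes without a read, 3053 against 595 to 1945 in the others. A smooth trend on transcript length, drawn without the genes of lowest mean level, put it at -0.347 against the mean of all libraries at a transcript length of 500 bases and at 0.182 at 8000 bases. The part of RNA quality in its low values was not tested.

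**Figure D2:**
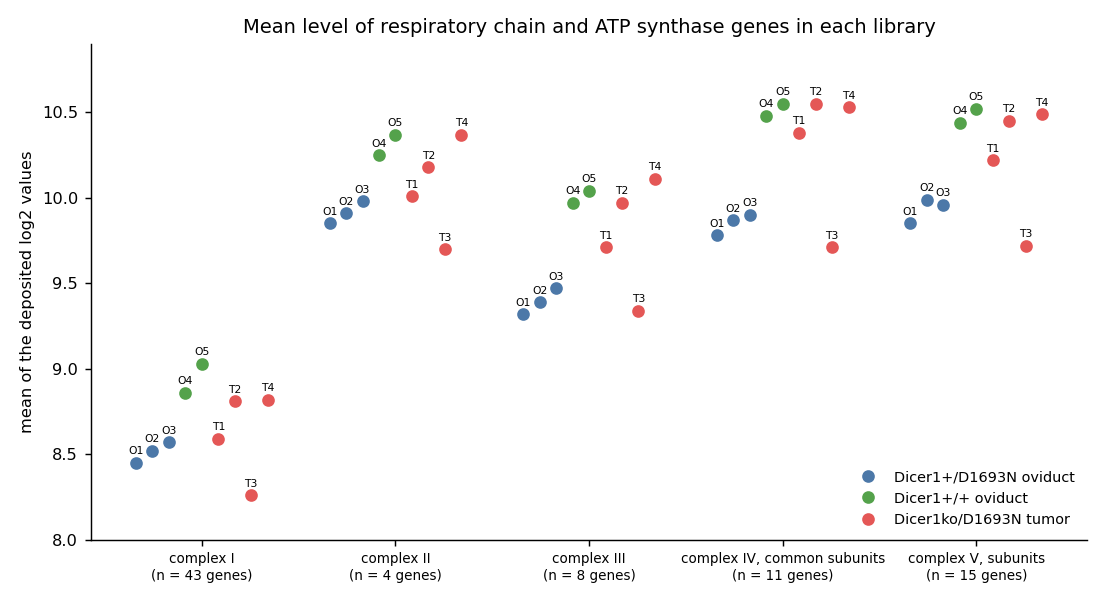
Mean of the deposited log2 values (vertical axis) over the genes of each complex, 1 point per library, labelled O1 to O5 for oviducts and T1 to T4 for tumors. In each complex the Dicer1+/D1693N oviducts (blue) lie below the Dicer1+/+ oviducts (green), and tumor 3 lies below the other 3 tumors.

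Complex I, the NADH dehydrogenase, had 1 member called higher and 1 called lower among 43, with a median change of -0.02. Ndufa10, an accessory subunit of the membrane arm, stood at 605.0, 648.3, 543.3, 586.4 and 749.1 normalized counts in oviducts 1 to 5 and at 866.3, 876.7, 798.2 and 802.4 in the tumors. The lowest tumor was above the highest oviduct. The change was 0.41 ± 0.13 (adjusted p = 0.0299 by limma), and it lost the call without any 1 of oviducts 1 to 4 or tumor 2 (adjusted p up to 0.0797). Ndufaf7 encodes a methyltransferase that acts in the assembly of complex I. It stood at 237.8, 270.3, 268.7, 243.7 and 304.8 in the oviducts and at 188.4, 185.1, 134.0 and 170.4 in the tumors. Every tumor was below every oviduct, and the gene fell by 0.59 on the log2 scale (SE 0.16, adjusted p = 0.0173), a call kept without each of the 9 libraries (adjusted p 0.0157 to 0.0472). It did not pass by limma against the Dicer1+/D1693N oviducts alone (-0.56, adjusted p = 0.0603) or the Dicer1+/+ oviducts alone (-0.64, adjusted p = 0.077). Ndufaf3, another assembly factor, had a change of -0.57 ± 0.21 and did not pass (adjusted p = 0.0644).

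The core subunits of complex I, which carry the flavin and the iron-sulfur clusters, had 0 of 7 called. Ndufs1 stood at 818.8 ± 118 in the oviducts (SD, n = 5) and 886.3 ± 41.4 in the tumors (SD, n = 4), with a change of 0.12 ± 0.13 (adjusted p = 0.515 by limma). Ndufv1, the flavoprotein that binds NADH, changed by 0.03 ± 0.18. Of the 29 accessory subunits, 11 changes were above 0 and 18 below, from -0.45 for Ndufa11 to 0.41 for Ndufa10. Ndufb4 was read at only 7.9 to 33.7 normalized counts in any library. In the GENCODE M21 transcripts, 33.4% of the 100-base stretches of Ndufb4 also occur in the annotated pseudogene Ndufb4c, so its reads may have been split or discarded by the counting, whose rule for such reads is not given in the sources used here.

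Complexes II and III had 0 of 4 and 0 of 8 members called. Sdha, the flavoprotein of succinate dehydrogenase, stood at 2528.3, 2502.7, 2744.3, 2937.4 and 2617.0 in the oviducts and at 1986.9, 2000.9, 1719.2 and 2904.7 in the tumors. Tumors 1 to 3 were below all oviducts and tumor 4 was within their range. The change was -0.33 ± 0.16 (adjusted p = 0.141 by limma), and without tumor 4 it was -0.48 and passed (adjusted p = 0.015). Sdhb, the iron-sulfur subunit, changed by 0.15 ± 0.22. In complex III, Uqcrc1, a core subunit, went from 1273 ± 192 (SD, n = 5) to 1613 ± 217 (SD, n = 4), with a change of 0.34 ± 0.15 (adjusted p = 0.108 by limma). Uqcrfs1, the Rieske iron-sulfur protein, changed by 0.40 ± 0.21 (adjusted p = 0.175), and by 0.57 without tumor 3 (adjusted p = 0.0413). Of the 8 complex III genes, 6 changes were above 0.

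Among the 18 genes of complex IV, cytochrome c oxidase, the called members were the paralogs linked to particular cells or to low oxygen, not the common subunits. Of the 11 common subunits 0 were called, with a median change of 0.15. Cox4i1, which encodes the ubiquitous form of subunit 4, stood at 3736 ± 1110 in the oviducts (SD, n = 5) and 3116 ± 611 in the tumors (SD, n = 4), with a change of -0.23 ± 0.23 (adjusted p = 0.486 by limma). Cox5a changed by 0.38 ± 0.30 (adjusted p = 0.372) and Cox6c, at 1782 ± 299 and 2574 ± 680, by 0.50 ± 0.20 (adjusted p = 0.0827). Cox7a2l, a factor for the assembly of supercomplexes, changed by 0.03 ± 0.19.

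Cox4i2 (ENSMUSG00000009876.13, GRCm38 chromosome 2, 152754173 to 152765037, plus strand) encodes the second form of subunit 4, known from lung and from pericytes and for its part in oxygen sensing. It stood at 5.6, 8.2, 9.0, 9.4 and 7.8 normalized counts in oviducts 1 to 5 and at 202.0, 73.8, 52.9 and 13.7 in tumors 1 to 4. All 4 tumors were above all oviducts, and tumor 4 was the closest to them. The change was 1.75 ± 0.46 (adjusted p = 0.0156 by limma), and the call was kept without each of the 9 libraries (1.28 to 2.22, adjusted p 0.000946 to 0.0402). Against the Dicer1+/+ oviducts alone it did not pass (1.70, adjusted p = 0.0988). Ndufa4l2 (ENSMUSG00000040280.10, GRCm38 chromosome 10, 127514967 to 127517154, plus strand) encodes a paralog of NDUFA4 known as a target of hypoxia-inducible factor. It stood at 31.3, 22.5, 14.9, 47.9 and 38.0 in the oviducts and at 225.3, 109.0, 33.8 and 115.7 in the tumors. Tumor 3 was within the range of the oviducts and the other tumors were above it. The change was 1.35 ± 0.41 (adjusted p = 0.0307 by limma), and 6 of the 9 libraries ended the call when left out, namely oviducts 1 to 3 and tumors 1, 2 and 4 (highest adjusted p 0.0741).

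Markers of other cells and of low oxygen were read beside these paralogs. The pericyte markers, 6 genes in all, were called higher in 4 (Rgs5, Pdgfrb, Cspg4 and Notch3), with none at 0, and their summed level ran from 2283 to 3679 in oviducts and from 5471 to 9509 in tumors. The endothelial markers had 2 of 3 called higher, with sums of 1282 to 2203 and 3271 to 6566. Of 18 hypoxia response and glycolysis genes 1 was called higher (5.56%, against 12.6% of all genes) and 0 lower. It was Hk2, a hexokinase (2.37 ± 0.63, adjusted p = 0.0161 by limma). That list summed to 32651 to 52118 in the oviducts and to 120648, 45775, 22156 and 82434 in tumors 1 to 4, so that tumor 2 was within the range of the oviducts and tumor 3 below it. The part of these cells and of oxygen supply in the levels of Cox4i2 and Ndufa4l2 was not tested.

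The remaining tissue-restricted subunits of complex IV were low and had 0 called, and 2 of them were raised in a single tumor. Cox8b, a form of subunit 8 known from muscle and brown fat, stood at 2.2, 5.2, 2.0, 5.5 and 3.3 in the oviducts and at 2.9, 0.0, 0.0 and 116.7 in the tumors. Tumor 4 was above all other libraries, and a count of 0 reads allows up to 3 reads. Its fat cell markers summed to 32693 normalized counts, against 29.3 to 88.4 in the other tumors, where Adipoq had 0 reads, and 1149 to 10182 in the oviducts. Of the 5 markers 0 were called. Of 3 cardiac or brown fat markers, Cidea, known from brown fat cells, was called lower in the tumors (-3.76 ± 0.47, adjusted p = 0.000203 by limma), while the changes of Actc1 and Myh6, known from heart muscle, were 1.24 ± 0.89 and 0.18 ± 0.33 and did not pass. Cox6a2, the heart and skeletal muscle form of subunit 6a, reached 21.6 in tumor 2, while the other 8 libraries held 0 to 3.3. The skeletal muscle markers summed to 1451 in tumor 2 and to 34.7 to 436 elsewhere. The change was 0.29 ± 0.66 for Cox8b and 0.24 ± 0.35 for Cox6a2, and without tumors 4 and 2 respectively it was -0.56 and -0.13. The part of fat and muscle cells in these single values was not tested. Cox7a1, the muscle form of subunit 7a, had similar means, 9.79 ± 7.37 in oviducts and 9.56 ± 5.72 in tumors. Cox6b2, known from testis, was at 68.7 ± 14.1 and 96.3 ± 37.5, with a change of 0.34 ± 0.28 (adjusted p = 0.387).

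**Figure D3:**
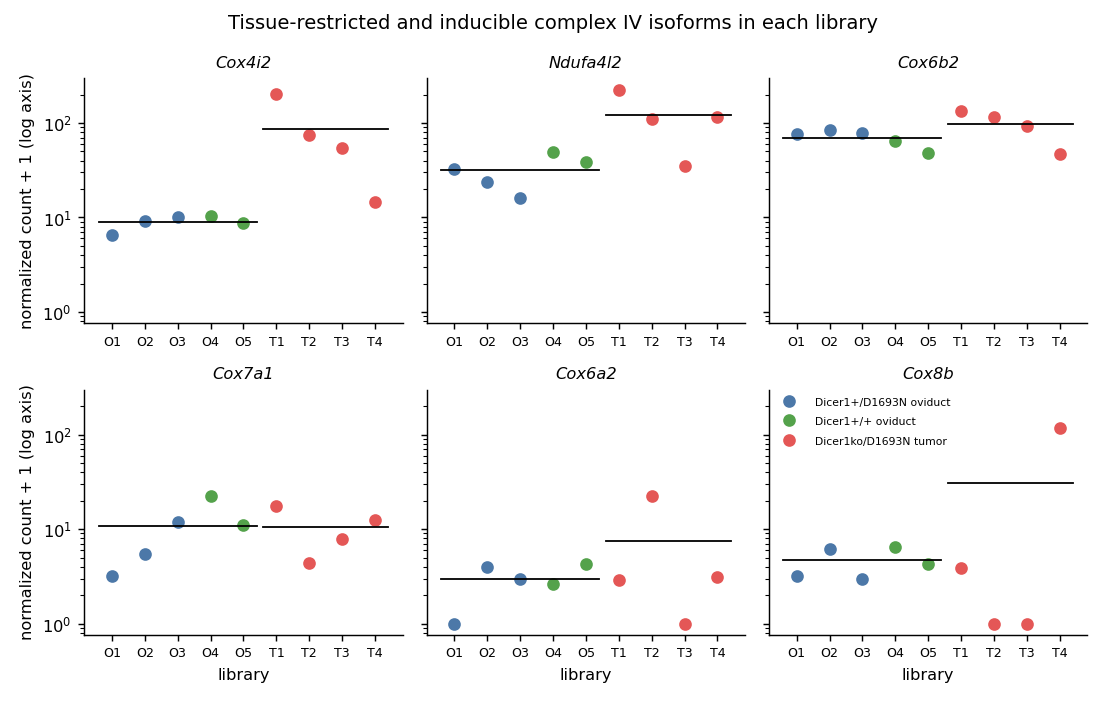
Normalized counts plus 1 (log axis) of the 6 tissue-restricted or inducible complex IV genes in each library (O1 to O5 oviducts, T1 to T4 tumors). Lines are the group means. Cox4i2 is separated between tumors and oviducts, tumor 3 overlaps the oviducts for Ndufa4l2, and single tumors stand high for Cox6a2 (T2) and Cox8b (T4).

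Of the 15 ATP synthase subunits 0 were called, with a median change of 0.09. Atp5b, the catalytic beta subunit, was the most abundant member by normalized count. It stood at 6409 ± 1390 in the oviducts (SD, n = 5) and 8234 ± 1150 in the tumors (SD, n = 4), with a change of 0.37 ± 0.19 (adjusted p = 0.171 by limma). Atp5a1, the alpha subunit, changed by 0.35 ± 0.16 (adjusted p = 0.12). The 2 genes of complex V by name only were both called lower. Atp5s, also called factor B, stood at 147.3, 169.2, 169.2, 159.6 and 164.1 in the oviducts and at 68.0, 111.3, 99.1 and 96.8 in the tumors. It fell by 0.69 on the log2 scale (SE 0.18, adjusted p = 0.0153 by limma), with the call kept without each of the 9 libraries (adjusted p up to 0.045). Against the Dicer1+/+ oviducts alone it did not pass (-0.69, adjusted p = 0.089). Atp5sl, now named Dmac2 and known as an assembly factor of the membrane arm of complex I, stood at 323.7, 298.0, 331.4, 251.5 and 278.0 in the oviducts and at 235.0, 210.1, 138.5 and 115.7 in the tumors. It fell by 0.74 on the log2 scale (SE 0.21, adjusted p = 0.0229), and the call was lost without any 1 of oviducts 1 to 3 (adjusted p up to 0.0594). For both genes every tumor was below every oviduct. Ndufaf7, Atp5sl and Atp5s do not encode structural subunits of the complexes. Of the 74 common structural subunits 0 were called lower, and of the 7 complex I assembly factors 14.3% were, where 18.5% of all genes were.

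Subunit c, which forms the rotating ring of the ATP synthase, is encoded by the 3 genes Atp5g1, Atp5g2 and Atp5g3, which differ in their import sequence and give the same mature protein. A stretch of 90 coding bases is shown because the 3 genes encode the same residues there and still differ in sequence. Capitals mark the 23 positions at which the genes differ, in the GENCODE M21 transcripts, and the stretch covers bases 181 to 270 of the coding sequence of Atp5g1, 211 to 300 of Atp5g2 and 196 to 285 of Atp5g3.
Atp5g1: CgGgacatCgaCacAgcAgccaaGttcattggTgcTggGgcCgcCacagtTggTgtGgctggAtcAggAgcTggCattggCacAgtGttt
Atp5g2: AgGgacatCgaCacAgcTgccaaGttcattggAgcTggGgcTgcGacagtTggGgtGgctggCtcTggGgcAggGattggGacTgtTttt
Atp5g3: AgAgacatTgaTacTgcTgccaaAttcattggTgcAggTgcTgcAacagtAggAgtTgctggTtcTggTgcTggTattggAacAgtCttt
Over the last 231 coding bases the identity was 84.8% between Atp5g1 and Atp5g2, 79.2% between Atp5g1 and Atp5g3 and 78.4% between Atp5g2 and Atp5g3. Of the 100-base stretches of the Atp5g2 transcripts, 86.4% also occur in other annotated genes (Gm10175 among them), against 6.2% for Atp5g1, so the count of Atp5g2 depends on how such reads were assigned. Atp5g1 stood at 481.1, 529.3, 525.4, 782.1 and 959.0 in the oviducts and at 353.5, 836.9, 582.1 and 561.6 in the tumors. Atp5g2 stood at 522.4, 563.0, 526.4, 711.4 and 705.6 and at 882.8, 943.7, 639.5 and 686.7. Per 1000 bases of transcript, Atp5g3 made up 57.1 ± 4.31% of the 3 messages in the oviducts (SD, n = 5) and 50.5 ± 11.2% in the tumors (SD, n = 4), Atp5g2 34.9 ± 4.42% and 42.5 ± 9.26%, and Atp5g1 8.0 ± 0.475% and 7.01 ± 2.90%. These shares depend on the median annotated lengths, 2675 bases for Atp5g1, 586 for Atp5g2 and 718 for Atp5g3. The transcripts present in these tissues may differ in length, so the low share of Atp5g1 may reflect the length used.

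Paralogs were also compared by their difference in log2 value within each library. For a gene at few reads this scale is near its floor, so such a difference still moves with the partner gene and the size factor. Of 9 pairs, 3 differed between tumors and oviducts by an exact two-sided permutation test over the libraries, with p-values adjusted over the 9 pairs. The smallest p that 4 tumors and 5 oviducts allow is 0.00794. The difference Cox4i2 minus Cox4i1 averaged -7.19 ± 0.37 in the oviducts (SD, n = 5) and -5.21 ± 1.10 in the tumors (SD, n = 4), without overlap, a shift of 1.98 (exact p = 0.00794, adjusted 0.0357). Per 1000 bases, Cox4i2 was 0.231 ± 0.0567% of the 2 subunit 4 messages in the oviducts and 5.38, 2.28, 2.38 and 0.431% in tumors 1 to 4, so Cox4i1 remained the main form in every library. Ndufa4l2 minus Ndufa4 shifted by 1.00 (exact p = 0.0159, adjusted 0.0476), with overlap at tumor 3. Atp5g1 minus Atp5g2 shifted by -0.54 (exact p = 0.00794, adjusted 0.0357), without overlap: it was -0.11, -0.09, 0.00, 0.13 and 0.43 in the oviducts and -1.27, -0.17, -0.13 and -0.28 in the tumors. Tumors 2 to 4 lay close below the lowest oviducts and tumor 1 farther away, and without tumor 1 the shift was -0.27. The other 6 pairs had adjusted p-values of 0.446 to 0.913. With 1 library left out, the 3 pairs kept their direction and 0 passed. The smallest p-value the test can then give is larger, and its adjusted value depends on how many of the 9 pairs reach it. From 0.0536 the adjusted p-values of this test ran up to 0.161 for Cox4i2 minus Cox4i1, 0.171 for Ndufa4l2 minus Ndufa4 and 0.268 for Atp5g1 minus Atp5g2. Because the other pairs enter the adjustment, a higher adjusted p need not mean a weaker separation of the pair itself.

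**Figure D4:**
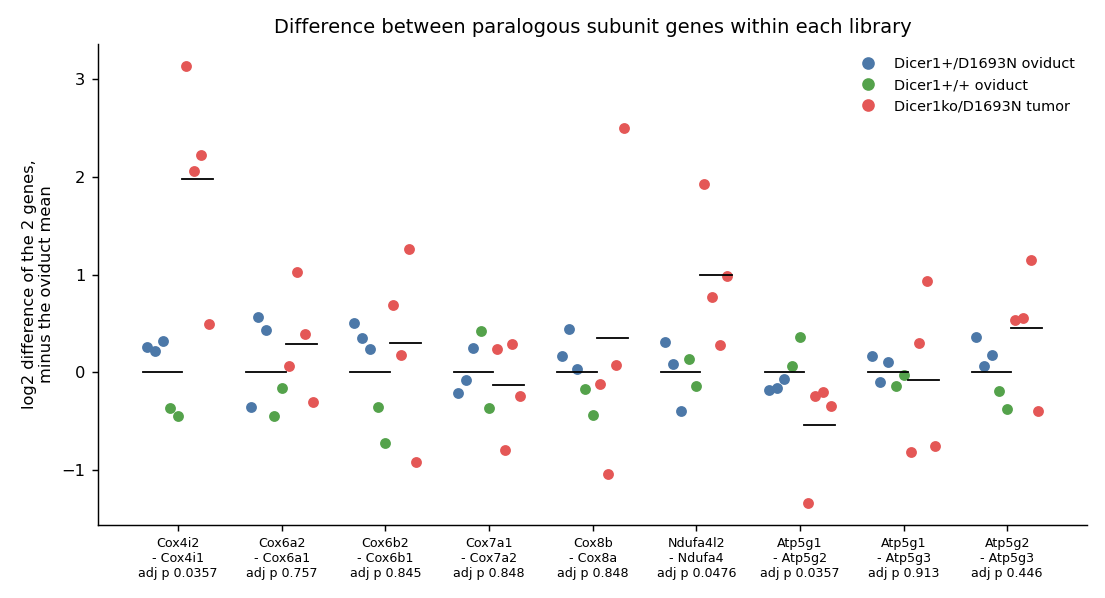
Difference of the deposited log2 values of 2 paralogous genes within each library, minus its mean in the oviducts (vertical axis), for 9 pairs, with the adjusted exact permutation p under each pair. Black lines are the group means. Tumors and oviducts do not overlap for Cox4i2 minus Cox4i1 and for Atp5g1 minus Atp5g2.

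Between the 2 oviduct genotypes most members differed in 1 direction, although 0 passed the test. The Dicer1+/D1693N oviducts were below both Dicer1+/+ oviducts in 72 of the 90 members, where 15.7% of all genes were, and above both in 2, where 16.3% were. The median difference, Dicer1+/D1693N minus Dicer1+/+, was -0.47 over the members and 0.01 over all genes, and 86 of the 90 differences were below 0. By limma 0 members were called in either direction (0.00515% of all genes higher, 1 gene, and 0.0154% lower, 3 genes), with a smallest adjusted p of 0.785. At an unadjusted p under 0.05 there were 24 members lower and 0 higher, against 297 lower and 237 higher of all 19435 genes. The 90 genes were read in the same 5 libraries and are not independent of each other. What else separated oviducts 1 to 3 from oviducts 4 and 5 is not in the labels.

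The difference was present in all 5 complexes. All 8 complex III genes, all 11 common subunits of complex IV, 14 of 15 ATP synthase subunits, 27 of 29 accessory and 6 of 7 core subunits of complex I and 3 of 4 complex II subunits were lower in oviducts 1 to 3 without overlap. The median differences were -0.59, -0.66, -0.50, -0.47, -0.30 and -0.50 in that order. Uqcr11, a small subunit of complex III, stood at 286.9, 356.4 and 490.6 normalized counts in oviducts 1 to 3 and at 832.4 and 885.3 in oviducts 4 and 5 (-1.17, unadjusted p = 0.00291). Cox7c, a small subunit of complex IV, stood at 610.6, 643.1 and 695.5 and at 1290.7 and 1141.0 (-0.88, adjusted p = 0.785 by limma). Cox4i1 stood at 2638.8, 3139.8 and 3023.9 and at 4990.5 and 4884.5 (-0.75). The assembly factors of complex I were less separated, with 2 of 7 below without overlap. Atp5s was even, with a difference of 0.00, and Atp5sl was above in all 3 (0.25).

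Transcript length and some other gene groups went with the genotype difference. Across the 90 members, whose libraries are shared, the difference correlated with log2 transcript length at a Pearson r of 0.45 (0.09 over the 19194 genes with a length), short genes being lower. The 56 members under 1000 bases had a median of -0.57, and 87.5% of them were below without overlap, while all 2760 genes of that length had a median of -0.07 and 24.2% below. The 34 longer members had a median of -0.36 and 67.6% below. After a correction of each library for transcript length, added after the data were seen, the median was -0.33 and 63 of the 90 were below. Of 75 cytosolic ribosomal genes 52 were below without overlap (median -0.27), of 76 mitochondrial ribosomal genes 46 (-0.27), of 10 carrier and exchange genes 8 (-0.37) and of 18 hypoxia response and glycolysis genes 12 (-0.39). Fewer were below among 18 Krebs cycle and pyruvate dehydrogenase genes, 8 (-0.19), and 38 assembly factors outside the rule, 11 (-0.15). Among 17 transcriptional regulators and mitochondrial DNA replication genes 3 were (17.6%), near the 15.7% of all genes. The mitochondrially encoded genes went the other way, with a median of 0.20 over 8 genes. Ovarian steroid cell markers summed to 24513, 3272 and 355 in oviducts 1 to 3 and to 2345 and 883 in oviducts 4 and 5, and smooth muscle and ciliated cell sums overlapped between the genotypes. The sums of the 3 cardiac or brown fat markers did not overlap. They were 135, 153 and 189 in oviducts 1 to 3 and 372 and 287 in oviducts 4 and 5. The part of tissue composition, RNA quality and genotype in the difference cannot be told apart in these 5 libraries.

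**Figure D5:**
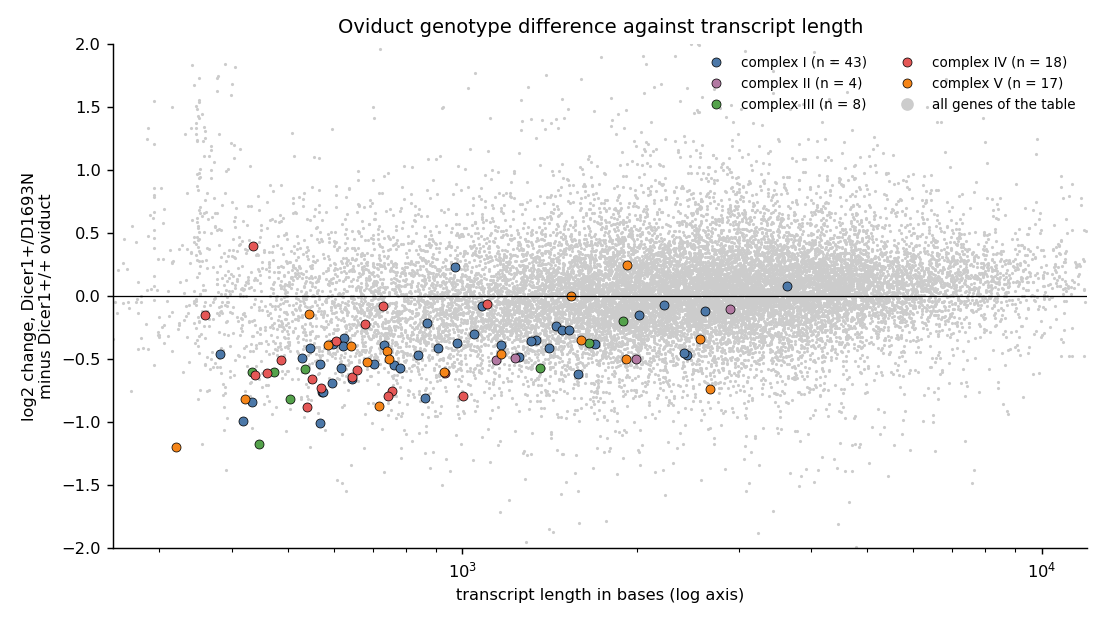
Log2 difference between the oviduct genotypes (vertical axis, Dicer1+/D1693N minus Dicer1+/+) against transcript length in bases (log axis) for the 90 members, coloured by complex, and for all genes with a length (grey), genes beyond the axis limits not drawn. Of the members, 86 lie below 0, the shorter ones farther below.

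The choice of control therefore set the direction of the typical member. Against the Dicer1+/D1693N oviducts the median change in the tumors was 0.23, with 7 members called higher (8.7% of all genes) and 2 lower (15.0% of all genes). Those higher were Cox4i2, Ndufa4l2 and Ndufa10, again, and Ndufs4, Uqcrc1, Uqcrfs1 and Cox7c, the last with the smallest adjusted p (0.83, adjusted p = 0.00341 by limma). The limit given above for Cox7c, reads shared with other genes, applies here too. Against the Dicer1+/+ oviducts the median was -0.28, with 0 called higher (5.32% of all genes) and 1 lower (11.2% of all genes). At an unadjusted p under 0.05, 1 member was higher, against 2442 of all 19435 genes. The gene called lower was Ndufc2, an accessory subunit of complex I, at 704.3 and 608.5 in these oviducts and 348.6, 404.3, 335.5 and 400.7 in the tumors (-0.79, adjusted p = 0.0131). The 2 comparisons share the 4 tumors. The count of 7 varied with the libraries: without tumor 3, 28 members were called higher against the Dicer1+/D1693N oviducts (11.1% of all genes then). Without oviduct 1, 2 or 3, or without tumor 2, Cox7c alone was called, and without oviduct 4 or 5, or tumor 1, 2 members were. Without tumor 4, 9 members were called lower against the Dicer1+/+ oviducts.

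Genes outside the rule that build, feed or regulate the chain were read against the same shares of all genes, 12.6% called higher and 18.5% lower. Of 38 other assembly factors, 1 was called higher (2.63%) and 6 lower (15.8%) in the tumors, no more than over all genes. Acad9, which assembles the membrane arm of complex I, stood at 742.7 ± 158 in the oviducts (SD, n = 5) and 330.9 ± 107 in the tumors (SD, n = 4) and fell by 1.15 on the log2 scale (SE 0.23, adjusted p = 0.00431 by limma). Lyrm7, a factor for the Rieske protein, fell by 1.02, Nubpl, which delivers iron-sulfur clusters to complex I, fell by 1.00, and Sco2, a copper chaperone of complex IV, fell by 0.88. Of 18 genes of the Krebs cycle and pyruvate dehydrogenase, Dlst and Dld were called higher (0.52 ± 0.12 and 0.53 ± 0.12) and Ogdh lower (-0.76 ± 0.18), all 3 parts of the 2-oxoglutarate dehydrogenase, which is 11.1% of the list higher and 5.56% lower. Of 76 mitochondrial ribosomal genes 6 were higher (7.89%) and 1 lower (1.32%), with changes of 0.71 for Mrps2, 0.66 for Mrpl22 and 0.65 for Mrpl45 and of -0.70 for Mrps17. Of 10 carrier and exchange genes, cytochrome c (Cycs) among them, 0 were called. The cytosolic ribosomal genes, a list added after the data were seen, had 23 of 75 called higher (30.7%) and 0 lower.

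Of the 8 measured genes encoded in mitochondrial DNA 0 were called. Their summed level ran from 200121 to 275951 in oviducts and from 208666 to 353058 in tumors, with tumor 3 the highest, the library lowest for the nuclear subunits. mt-Co1, the catalytic subunit of complex IV, stood at 90680 ± 11100 (SD, n = 5) and 129000 ± 13300 (SD, n = 4), without overlap. Its change of 0.51 had an adjusted p of 0.369 in the fit with a trend in the prior variance and of 0.0308 without it (limma). With limma-voom the adjusted p was 0.0247. The change was 0.16 with quantile normalization (adjusted p = 0.8) and 0.65 with median centring (adjusted p = 0.273). With weights per library it was 0.45 (adjusted p = 0.416), and with the replicate block 0.46 (adjusted p = 0.68).

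Of 17 genes, transcriptional regulators of mitochondrial genes together with mitochondrial DNA replication genes, 3 were called higher (17.6%) and 2 lower (11.8%), shares near those of all genes. Esrrg, an estrogen-related receptor, stood at 226.6, 178.2, 271.6, 112.4 and 186.4 in the oviducts and at 74.8, 31.8, 37.2 and 2.1 in the tumors (-2.17 ± 0.45, adjusted p = 0.00483 by limma). Ppargc1a, the coactivator PGC-1 alpha, stood at 188.6, 166.9, 166.2, 231.1 and 154.1 and at 87.4, 37.5, 65.3 and 31.5 (-1.48 ± 0.26, adjusted p = 0.00176). Every tumor was below every oviduct for both. Pprc1, a coactivator of the same family, rose by 0.81 ± 0.18 and Gabpb1, a subunit of the ETS factor GABP, by 0.71 ± 0.17. Nrf1, a nuclear respiratory factor outside the 4 largest changes of the list, rose by 0.53 ± 0.15 (adjusted p = 0.0224). NRF1 and GABP are known to bind the promoters of many subunit genes, so these promoters were searched.

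RefSeq promoters (GRCm38.p6, 250 bases before to 50 after the start) were held for 72 of the 90 members and for 14070 genes of the table. The NRF1 core GCATGCGC was present on either strand in 12 of the 72 (16.7%), in 10.3% of 68 mitochondrial ribosomal genes and in 4.8% of the genes of the table. The ETS motif CCGGAAG was present in 23.6% of the members, in 36.8% of the mitochondrial ribosomal genes and in 15.9% of the table. In the same order, the ERR motif AAGGTCA was present in 11.1, 5.9 and 4.5%, the HIF core ACGTG in 23.6, 23.5 and 26.5% and TATAAA in 8.3, 7.4 and 10%. A palindromic GCGCATGCGC holds the NRF1 core on both strands and was counted as 1 gene. The promoters of 2 complex III genes with the core are shown because Uqcr11 had the largest genotype difference of that complex and Uqcrc1 was called against the Dicer1+/D1693N oviducts. Capitals mark the NRF1 core and the ETS motif. The Uqcr11 window is chr10:80406772-80407071 on the minus strand and the Uqcrc1 window chr9:108936398-108936697 on the plus strand.
Uqcr11: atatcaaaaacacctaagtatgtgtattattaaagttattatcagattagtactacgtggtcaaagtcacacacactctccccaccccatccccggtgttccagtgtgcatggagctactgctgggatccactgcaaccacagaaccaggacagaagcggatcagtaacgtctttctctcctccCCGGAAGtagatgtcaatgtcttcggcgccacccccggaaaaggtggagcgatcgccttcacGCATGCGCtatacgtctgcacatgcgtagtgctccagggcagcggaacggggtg
Uqcrc1: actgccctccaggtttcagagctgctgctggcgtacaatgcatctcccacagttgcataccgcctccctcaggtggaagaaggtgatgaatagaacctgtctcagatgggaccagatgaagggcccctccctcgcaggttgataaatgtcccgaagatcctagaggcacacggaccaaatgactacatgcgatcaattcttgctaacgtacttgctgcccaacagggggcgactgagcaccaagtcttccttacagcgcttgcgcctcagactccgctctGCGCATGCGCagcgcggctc
A match describes the letters in the window and does not show that a factor was bound.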

How the data were processed

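Per the labels' protocols, poly-A RNA was selected with beads and copied from random primers. Per the submitters' processing notes, FastQC 0.11.5, STAR 2.5.3a and HTSeq were used with GRCm38 (mm10). The strandedness, annotation and rule for ambiguous reads are not given in the sources used here. The authors deposited log2 values, whose transformation is not stated. They fit a variance-stabilizing transformation of normalized counts, and inverting it gave whole reads for 100% of values within 0.05 reads. On this scale a change of a gene with few reads is understated.

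Groups came from the labels. Limma 3.58.1 in R 4.3.3 (trend in the prior variance, two-sided) was fitted to the deposited values of all 19435 genes, in a 2-group model for tumor against oviduct and a 3-group model for the genotypes, and tested on simulated data. Paralogs were compared by exact permutation tests. The title numbers do not pair the libraries. Lengths (the median over basic transcripts of a gene) and positions came from GENCODE M21, with 89 members matched directly and Atp5sl by an older symbol. Counting intervals cover counting error only. No sequence of 18 members without a promoter entry was used, among them Cox4i2, Ndufa4l2 and Cox4i1.

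Named members were those called with a log2 change of at least 1, the largest called changes per complex, core subunits (1 of those chosen is not reported here) and all genes of the paralog pairs. Other pathway genes were the called genes with the largest change, at most 4 per list. Nrf1, Ndufaf3, Ndufa11, Ndufb4, Ndufc2, Ndufs4, Cox6c, Cox7a2l, Cox7c, Uqcr11, Atp5s, mt-Co1, Cidea, Actc1 and Myh6 were also singled out after their values were seen. The members and lists were chosen with earlier results of these data known. Alternatives were quantile normalization, median centring, limma-voom on the recovered reads, no trend, library weights, a filter on low genes, other control groups, a replicate block, each library left out and, added after the data were seen, a length correction.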

Additional observations from a re-analysis of the deposited data

How the results depend on the processing

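Most results kept their direction and their side of the threshold. Of the values for called members, 86 of 114 under an alternative did and 28 lost the call. Of those for other named members 358 of 415 did, 48 turned direction and 9 gained a call. Of those for paralog pairs 77 of 117 did, 33 lost the call and 7 turned direction. The 3 pairs that passed each lost the call under 11 alternatives and kept it under 2. Of the counts and medians, 135 of 196 stayed about the same, 41 were weaker, 19 stronger and 1 moved. Over all genes the median change was -0.048 as reported, 0.078 with quantile normalization and 0.088 with median centring. For tumor against oviduct, the members called higher numbered 8 with median centring, 6 with weights per library, 7 with the Dicer1+/D1693N oviducts alone as controls and 0 with the Dicer1+/+ oviducts alone. Those called lower numbered 0 with a minimum change of 1 and 1 with the Dicer1+/+ oviducts alone, where the median member change was -0.28. Leaving out 1 library gave 1 to 6 higher and 2 to 5 lower. The title numbers do not pair the libraries (same-number correlations of 0.117, 0.061, -0.089 and 0.006). With the title number as a replicate block, 1 member was higher and 0 were lower, and Cox6a1 stood at 0.06, Cox8a at 0.05 and Atp5g3 at 0.07.

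Against the Dicer1+/D1693N oviducts, members called higher numbered 18 with median centring, 3 without the trend, 22 with weights per library, 11 with low genes left out, 11 with the length correction and 2 with a minimum change of 1, and 1 to 28 with a library left out. Those lower numbered 0 with quantile normalization, 0 with median centring, 0 with a minimum change of 1 and 0 to 3 with a library left out. Against the Dicer1+/+ oviducts, 1 was higher with weights (0 to 1 with a library left out), and those lower numbered 2 with quantile normalization, 4 with weights, 0 with a minimum change of 1 and 0 to 9 with a library left out. Between the oviduct genotypes, 1 member (Cox7c) was lower with weights. Of the paralog pairs, 0 passed with the Dicer1+/D1693N oviducts alone, 0 with the Dicer1+/+ oviducts alone and 0 with any library left out, where fewer libraries raise the smallest p the exact test can give. With a library left out, the adjusted exact p of Atp5g1 minus Atp5g2 reached 0.268, and an adjusted value also depends on the other pairs.

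Changes that turned direction belonged to members that were not called. With quantile normalization these were Ndufv1 at -0.01, Cox6b1 at -0.01 and the difference Cox7a1 minus Cox7a2 at 0.2. With the Dicer1+/+ oviducts alone they were Ndufv1 at -0.14, Sdhb at -0.15, Cox5a at -0.01, Cox7a1 at -0.36, Cox6b1 at -0.27, Cox7a2 at -0.2 and Ndufa4 at -0.02. With the Dicer1+/D1693N oviducts alone they were Cox4i1 at 0.07, Atp5g1 at 0.12, Cox6a1 at 0.25, Cox8a at 0.21, Atp5g3 at 0.26 and Cox6b2 minus Cox6b1 at -0.06. With weights they were Cox7a1 at -0.01, Atp5g1 at 0.15, Cox6a1 at 0.27, Cox8a at 0.2 and Atp5g3 at 0.16, with voom Cox8b at -0.21, and with median centring Cox6a1 at 0.09, Cox8a at 0.08 and Atp5g3 at 0.05. With 1 library left out, the range was -0.09 to 0.17 for Ndufv1, -0.13 to 0.51 for Cox6a2, -0.13 to 0.18 for Cox7a1, -0.56 to 0.66 for Cox8b, -0.36 to 0.04 for Atp5g1, -0.19 to 0.25 for Cox6a1, -0.12 to 0.36 for Cox6b1, -0.2 to 0.22 for Cox8a and -0.31 to 0.23 for Atp5g3. For differences within pairs it was -0.02 to 0.71 for Cox6b2 minus Cox6b1, -0.27 to 0.09 for Cox7a1 minus Cox7a2, -0.37 to 0.81 for Cox8b minus Cox8a and -0.43 to 0.16 for Atp5g1 minus Atp5g3. Apart from the exact test with fewer libraries, the cause was not tested. Members at a few reads (Cox6a2, Cox7a1, Cox8b) are limited by depth. For Ndufb4, also low, the part of reads shared with its pseudogene was not tested.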
